A study of Mus musculus with 1279 samples.

Results

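The expression of 10 genes of calcium handling was followed across cells of the mouse heart that had been placed in 8 clusters. The genes were chosen by symbol, with earlier results of these data known: Pln, Casq2, Atp2a2, Itpr1, Ryr2, Ryr3, Cacna1c, Cacna1h, Kcnma1 and Kcnmb1. All 10 were found among the 46517 genes of the count table. The question was in which cells of the heart mesenchyme, and how evenly among them, these genes were expressed.

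Cells came from adult male mice of 10 to 20 weeks, and each was read in its own well by Smart-seq2, which copies whole transcripts and attaches no molecular identifiers. C57BL6 cells had been stained with antibodies against PDGFRα and PDGFRβ. PdgfrbGFP, Cspg4dsRED and Acta2GFP were transgenic reporter strains in which a fluorescent protein is driven by regulatory sequences of Pdgfrb, Cspg4 or Acta2. Per the study's methods, cells positive for CD31 were left out of antibody and reporter sorts alike. A reporter sort returns the cells in which that promoter is active, and elastase had been added to the dissociation of Acta2GFP hearts. No treatment was given to any strain. There were 1279 cells, 926 in clusters 1 to 5, which the study's text places among fibroblasts, and 353 in clusters 6 to 8. The latter were taken here as mural cells, the smooth muscle cells and pericytes that wrap vessels, since the text names no identity for these numbers.

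Cluster 6 held 39 cells (3 C57BL6, 33 Cspg4dsRED, 3 Acta2GFP). Cluster 7 held 1, 9, 75 and 33 cells of C57BL6, PdgfrbGFP, Cspg4dsRED and Acta2GFP. Cluster 8 held 33, 29 and 15 cells of C57BL6, Cspg4dsRED and Acta2GFP, and PdgfrbGFP gave 60.7% of its cells. A cell had between 46268 and 1302397 counts, spike-ins excluded, and the median was 274504. The labels name no animal, so the strain was the replicate, and strain and sort cannot be told apart. Each reporter strain was on 1 plate of its own. The C57BL6 cells came from 3 plates, but all their mural cells from 1 of them. The p-values therefore measure the spread between strains. The clusters had been made by the authors from the same counts, so no p-value is independent evidence of a difference between clusters.

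The marker levels were read as the summed CPM (read counts scaled to the library total) of short lists. The 4 smooth muscle markers together ran from 9946 to 13384 CPM in cluster 6 and from 10670 to 15717 CPM in cluster 7, and from 201.1 to 4033 CPM in cluster 8. The 4 pericyte markers ran from 4057 to 15046 CPM in cluster 8 and from 41.03 to 1753 CPM in clusters 6 and 7. Cluster 8 of Acta2GFP held both lists at a like level, 4057 CPM of pericyte and 4033 CPM of smooth muscle markers, and in the other strains cluster 8 held at most 1170 CPM of the latter. The 3 C57BL6 cells of cluster 6 had 9822 CPM of the 5 fibroblast markers beside 11019 CPM of smooth muscle markers. The fibroblast markers had 1797 CPM in cluster 6 of Cspg4dsRED and 2167 CPM in that of Acta2GFP, 122.6 to 646 CPM in cluster 7 and 513 to 2645 CPM in cluster 8. The 5 markers of mural cells as a whole ran from 781 to 2446 CPM in cluster 6 and from 5239 to 11764 CPM in clusters 7 and 8, against 42.5 to 729.8 CPM in clusters 1 to 5, so cluster 6 held fewer of them than the other mural clusters. Clusters 6 and 7 are therefore called smooth muscle clusters and cluster 8 the pericyte cluster below, and the comparisons of mural clusters are also given without the strains of these sums and of the 9 PdgfrbGFP cells of cluster 7.

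In a muscle cell, calcium enters from outside through voltage-gated channels, is set free from the sarcoplasmic reticulum through release channels, and is pumped back into the reticulum by a calcium ATPase, where buffer proteins hold it. In vascular smooth muscle this cycle sets contraction and vessel tone. Calcium sparks near the membrane also open large-conductance potassium channels, which oppose contraction. Several of these genes are best known from cardiac muscle, which was not a target of the sorts.

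Pln, Casq2 and Kcnmb1, which were high in mural cells and low in fibroblasts, are shown here by the 250 bases before their RefSeq start (GRCm38.p6). The sequences can so be read beside the levels. Cacna1h, which was also close to 0 in fibroblasts, had no RefSeq window. In the GENCODE M21 annotation of the same build, whose gene starts can differ from those of RefSeq, Pln lies on chromosome 10 from 53337667 to 53345987, Casq2 on chromosome 3 from 102086415 to 102146514 and Kcnmb1 on chromosome 11 from 33963013 to 33973641, all on the plus strand. The printed windows are chr3:102086165-102086414 for Casq2, chr10:53337436-53337685 for Pln and chr11:33962763-33963012 for Kcnmb1, each read on the plus strand from 5′ to 3′. The capitals mark a match to the MEF2 site.
Casq2: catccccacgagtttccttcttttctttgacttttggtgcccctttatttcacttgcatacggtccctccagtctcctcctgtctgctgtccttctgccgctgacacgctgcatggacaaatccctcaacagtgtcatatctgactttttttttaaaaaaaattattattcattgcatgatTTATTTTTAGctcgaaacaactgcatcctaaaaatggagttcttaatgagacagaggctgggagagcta
Pln: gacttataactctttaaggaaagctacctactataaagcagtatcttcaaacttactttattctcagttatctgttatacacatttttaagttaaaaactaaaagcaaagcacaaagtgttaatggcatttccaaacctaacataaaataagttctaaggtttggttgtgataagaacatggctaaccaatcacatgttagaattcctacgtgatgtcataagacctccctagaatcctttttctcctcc
Kcnmb1: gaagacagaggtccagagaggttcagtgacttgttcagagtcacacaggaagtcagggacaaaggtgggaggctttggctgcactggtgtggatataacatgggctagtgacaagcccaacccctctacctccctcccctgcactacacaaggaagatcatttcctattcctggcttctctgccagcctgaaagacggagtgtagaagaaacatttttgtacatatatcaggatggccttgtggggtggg
Of the 10 members, 6 had a window in the RefSeq table. The windows were searched on both strands for the CArG box and the MEF2 site, the binding motifs of the muscle factors SRF and MEF2. A CArG box was present in 1.47% of 32851 windows of this length and in none of the 6. A MEF2 site was present in 2.92% of all windows and, among the 6, in Casq2, where its first base lay 69 bases before the start. A match describes letters only.

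The levels of all members by cluster and strain are given in the plot of levels, and the order below follows their roles.

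**Figure D1:**
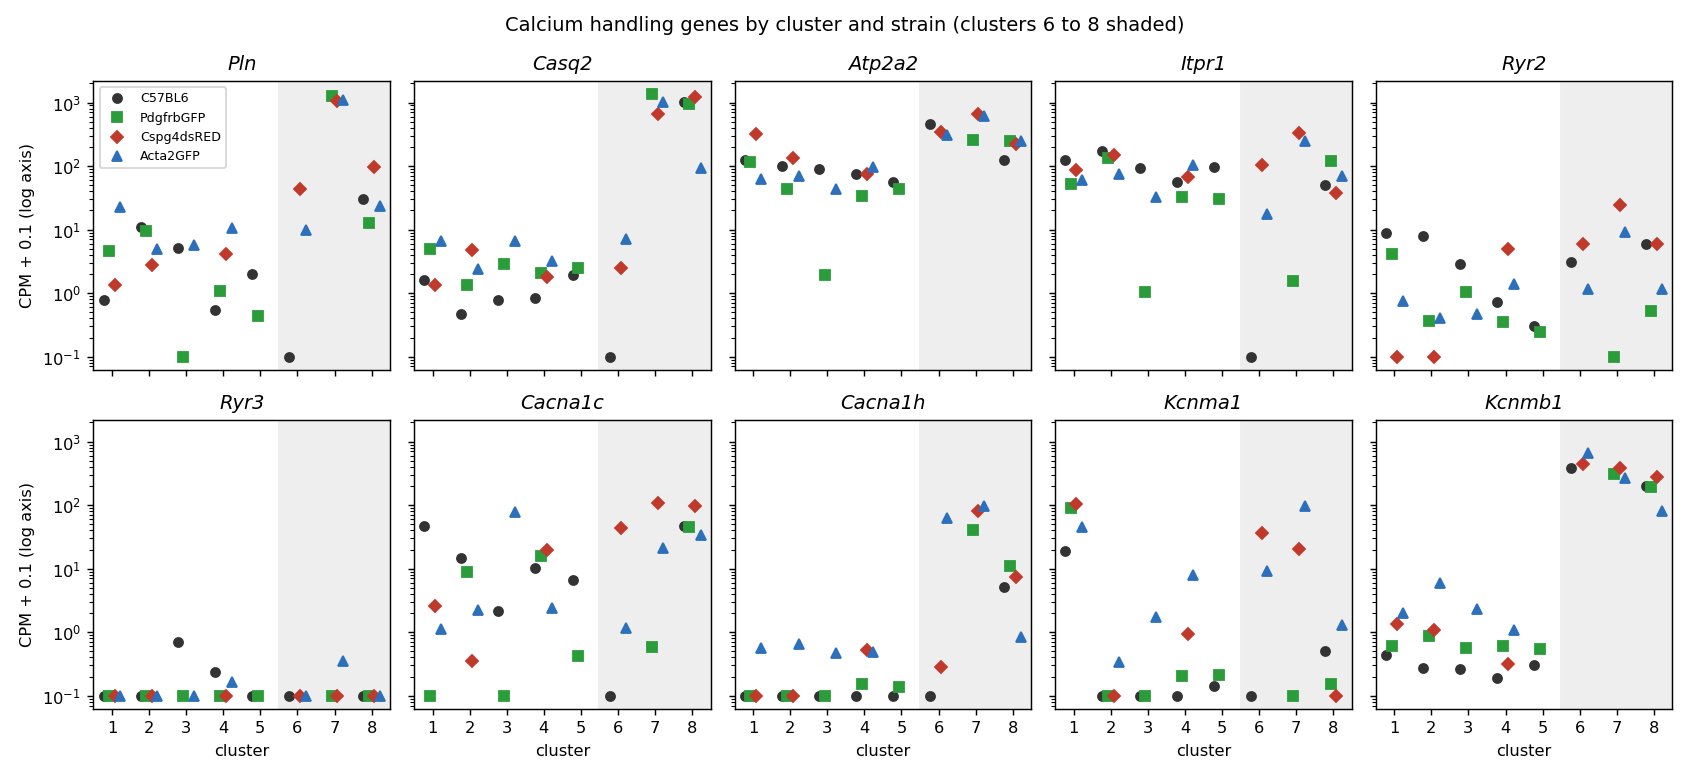
Level of each calcium handling gene in clusters 1 to 8. Each panel is 1 gene, the horizontal axis is the cluster, the vertical axis is the level in CPM (log axis), and each point is the sum of the cells of 1 strain (3 cells or more). Pln is over 1000 CPM in the 3 strains of cluster 7 and under 100 CPM elsewhere, Casq2 runs from 671 to 1357 CPM in cluster 7 and from 92.9 to 1242 CPM in cluster 8, and Kcnmb1 is over 80 CPM in all 3 mural clusters (shaded).

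Pln encodes phospholamban, the small membrane protein that inhibits the reticulum calcium pump until it is phosphorylated. In mural cells its level was 37.8 CPM in C57BL6 cells, 137.7 in PdgfrbGFP, 569 in Cspg4dsRED and 642 in Acta2GFP. In fibroblasts it was 4.06, 2.89, 9.002 and 10.5 CPM in the same order. The ranges did not overlap, and mural cells were higher by a log2 fold change of 5.74 (SE 0.90, adjusted p = 0.00487, edgeR quasi-likelihood test, n = 4 strains). A gene was called where this p, adjusted over all genes tested, was under 0.05. The mural level of C57BL6 was far below that of Cspg4dsRED and Acta2GFP, and 33 of the 37 mural cells of C57BL6 belonged to cluster 8.

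Within mural cells, Pln was a gene of cluster 7. There its level was 1276 CPM in PdgfrbGFP, 1062 in Cspg4dsRED and 1086 in Acta2GFP, and the single C57BL6 cell had 451 CPM. In cluster 8 of those 3 strains it was 12.7, 98.2 and 23.6 CPM, and in cluster 8 of C57BL6 it was 29.7 CPM. The difference between clusters 7 and 8 was 4.80 on the log2 scale (SE 0.78, adjusted p = 0.0314, edgeR, n = 3 strains), with no overlap. Without PdgfrbGFP the log2 fold change was 4.15 and the adjusted p 0.230 in edgeR, but with the 2 strains left none of 12803 genes was called, while 1514 had an unadjusted p under 0.05.

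In single cells the split was one of presence. A cell was counted as having a gene at 10 counts or more, since low counts of mural genes were also found in fibroblast wells (below). Of the cells of cluster 7, 89.8% had Pln by this count. The share was 94.7% in Cspg4dsRED (95% exact Clopper-Pearson interval 86.9 to 98.5) and 90.9% in Acta2GFP (75.7 to 98.1). It was 44.4% in PdgfrbGFP (13.7 to 78.8), where the median of 9 cells was 4.89 CPM and the highest cell had 6411 CPM, so that a few cells carried its sum. In cluster 8 the share was 9.09% in C57BL6 (1.92 to 24.3), 1.68% in PdgfrbGFP (0.204 to 5.94), 13.8% in Cspg4dsRED (3.89 to 31.7) and 20.0% in Acta2GFP (4.33 to 48.1), against 2.05% of all fibroblasts. All intervals, here and below, cover counting error only. With cells thinned to 50000 counts, which left out the 2 cells with fewer, and a single count taken as presence, the shares of cluster 7 were 44.4% to 98.6% and those of cluster 8 were 5.93% to 53.3%.

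In cluster 6, the other smooth muscle cluster, Pln stood at 42.9 CPM for Cspg4dsRED, 9.72 CPM for Acta2GFP and 0 for C57BL6. The sum of 0 in C57BL6 was of 3 cells, where 3 counts would have been 2.94 CPM. Against clusters 7 and 8 together the difference was 4.73 on the log2 scale (SE 1.46), and it was not called (adjusted p = 0.453, edgeR, n = 3 strains). The edgeR fit that pairs the sides of a strain called it (adjusted p = 0.000178), as did the edgeR fit without a filter on low counts (0.000669). In the other fits Pln passed that filter through clusters 7 and 8, where it was high, so these values are a description.

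Atp2a2 encodes SERCA2, the calcium pump of the reticulum that phospholamban inhibits. Its mural level was 160.1 CPM for C57BL6, 252.2 for PdgfrbGFP, 483 for Cspg4dsRED and 472 for Acta2GFP, and its fibroblast level was 79.4, 47.4, 137.6 and 72.7 CPM. All mural values lay above all fibroblast values, although the C57BL6 mural value and the Cspg4dsRED fibroblast value were close. The log2 fold change was 2.04 (SE 0.42, adjusted p = 0.0184, edgeR). The call was lost without PdgfrbGFP (adjusted p = 0.0762, log2 fold change 1.97) and without Acta2GFP (0.121, 1.79).

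Atp2a2 averaged 369 ± 73.2 CPM in cluster 6 (SD, n = 3 strains), 513 ± 226.3 in cluster 7 (n = 3) and 211.1 ± 59.5 in cluster 8 (n = 4), and from 45.5 to 155.7 CPM in clusters 1 to 5. Clusters 6 and 7 did not differ beyond their spread. In cluster 7 it was 253.2, 664 and 623 CPM in PdgfrbGFP, Cspg4dsRED and Acta2GFP and in cluster 8 it was 252.1, 223.04 and 245.5 CPM. These ranges did not overlap, but the PdgfrbGFP values of both clusters were nearly equal, and the difference of 1.12 on the log2 scale (SE 0.55) was not called (adjusted p = 0.769, edgeR). At 10 counts or more it was found in 83.9% of the cells of cluster 7, 82.1% of cluster 6, 23.5% of cluster 8 and 24.1% of the 926 fibroblasts.

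Casq2 encodes calsequestrin 2, the calcium buffer of the reticulum lumen known from cardiac muscle. In mural cells C57BL6 had 917 CPM, PdgfrbGFP 990, Cspg4dsRED 574 and Acta2GFP 623. The fibroblast level was 1.00, 2.32, 2.84 and 3.98 CPM. The log2 fold change was 8.31 (SE 0.54, adjusted p = 9.89e-05, edgeR, n = 4 strains), and the call held in 11 of 11 other settings.

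Within mural cells, Casq2 was shared by clusters 7 and 8 and low in cluster 6. Its level in cluster 7 was 1357 CPM in PdgfrbGFP, 671 in Cspg4dsRED and 1016 in Acta2GFP. In cluster 8, C57BL6 had 1025 CPM, PdgfrbGFP 950, Cspg4dsRED 1242 and Acta2GFP 92.9, the strain whose cluster 8 also held the most smooth muscle markers. Cluster 7 was higher in 2 of 3 strains and the log2 difference was 0.56 (SE 0.71, adjusted p = 0.989, edgeR).

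In cluster 6 Casq2 stood at 7.02 CPM for Acta2GFP, 2.41 CPM for Cspg4dsRED and 0 for C57BL6, levels like those of fibroblasts. In clusters 7 and 8 together Acta2GFP had 685 CPM, Cspg4dsRED 826 and C57BL6 1039.5. The difference was 7.83 on the log2 scale (SE 1.15, adjusted p = 0.0490, edgeR), without overlap. Casq2 passed the filter on low counts here through clusters 7 and 8, where it was high, so these values are a description. Without Cspg4dsRED, which gave 33 of the 39 cells of cluster 6, the log2 difference was 7.60 and the adjusted p 0.409 in edgeR, but with the 2 strains left none of 10626 genes was called, while 1254 had an unadjusted p under 0.05. No cell of cluster 6 had 10 counts of Casq2, and 0 of 39 cells allows a share of up to 7.69%. In cluster 7 the gene was present in 68.6% of cells and in cluster 8 in 46.4%.

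Casq2 also varied inside the pericyte cluster. At 10 counts or more it was found in 78.8% of the C57BL6 cells of cluster 8 (61.1 to 91), 37.8% of PdgfrbGFP (29.1 to 47.2), 58.6% of Cspg4dsRED (38.9 to 76.5) and 20.0% of Acta2GFP (4.33 to 48.1). The median PdgfrbGFP cell had 19.4 CPM and the highest 8366 CPM, whereas the median C57BL6 cell had 1047 CPM. PdgfrbGFP cells of cluster 8 also had the lowest depth of the 4 strains, a median of 143791 counts against 211912 in C57BL6. With cells thinned to equal depth and a single count taken as presence, the shares ran from 53.3% to 81.8%. Depth and cut-off were both changed there, so the part of depth in the difference between strains was not tested.

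**Figure D2:**
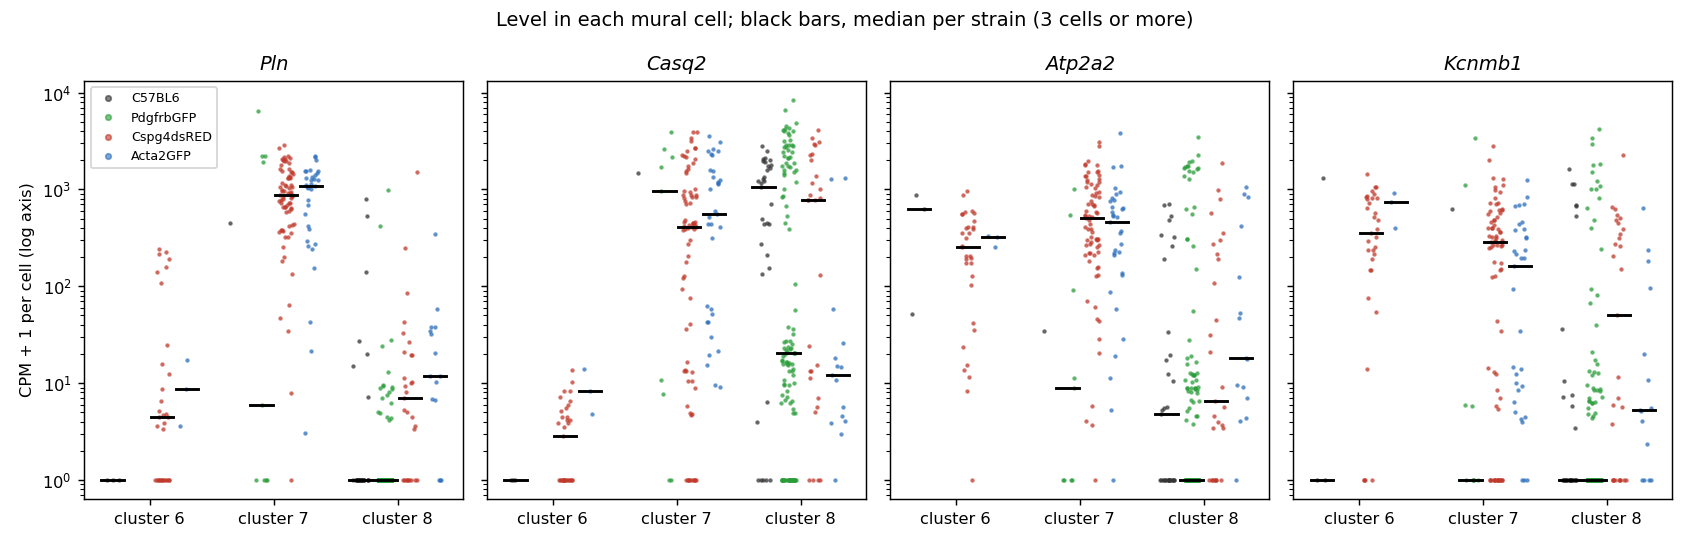
Level of Pln, Casq2, Atp2a2 and Kcnmb1 in every mural cell. The vertical axis is CPM + 1 per cell (log axis), points are cells coloured by strain, and black bars are the median of a strain with 3 cells or more. Pln is present in most cells of cluster 7, Casq2 in parts of clusters 7 and 8 and in no cell of cluster 6 at 10 counts or more, and Kcnmb1 in 32 of the 39 cells of cluster 6.

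The same cells did not always hold both genes. In cluster 7, 62.7% of cells had both Pln and Casq2 at 10 counts or more, 27.1% had Pln without Casq2, 5.93% had Casq2 without Pln and 4.24% had neither. In cluster 8, 3.57% of cells had both, 42.9% had Casq2 without Pln, 2.55% had Pln without Casq2 and 51% had neither. In cluster 6 no cell had both, 8 of 39 had Pln alone and 31 had neither.

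Over cells of cluster 7, the Pearson correlation of Pln and Casq2 on the log2(CPM + 1) scale was -0.16 among 75 Cspg4dsRED cells and 0.13 among 33 Acta2GFP cells, a weak relation of no common sign. Over the 27 sums of a strain and cluster (3 cells or more), which share plates and depths, r was 0.80. All 4 of Pln, Casq2, Kcnmb1 and Atp2a2 were present in 33.1% of the cells of cluster 7 and in no cell of cluster 8. None of the 4 was present in 33.7% of the cells of cluster 8.

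**Figure D3:**
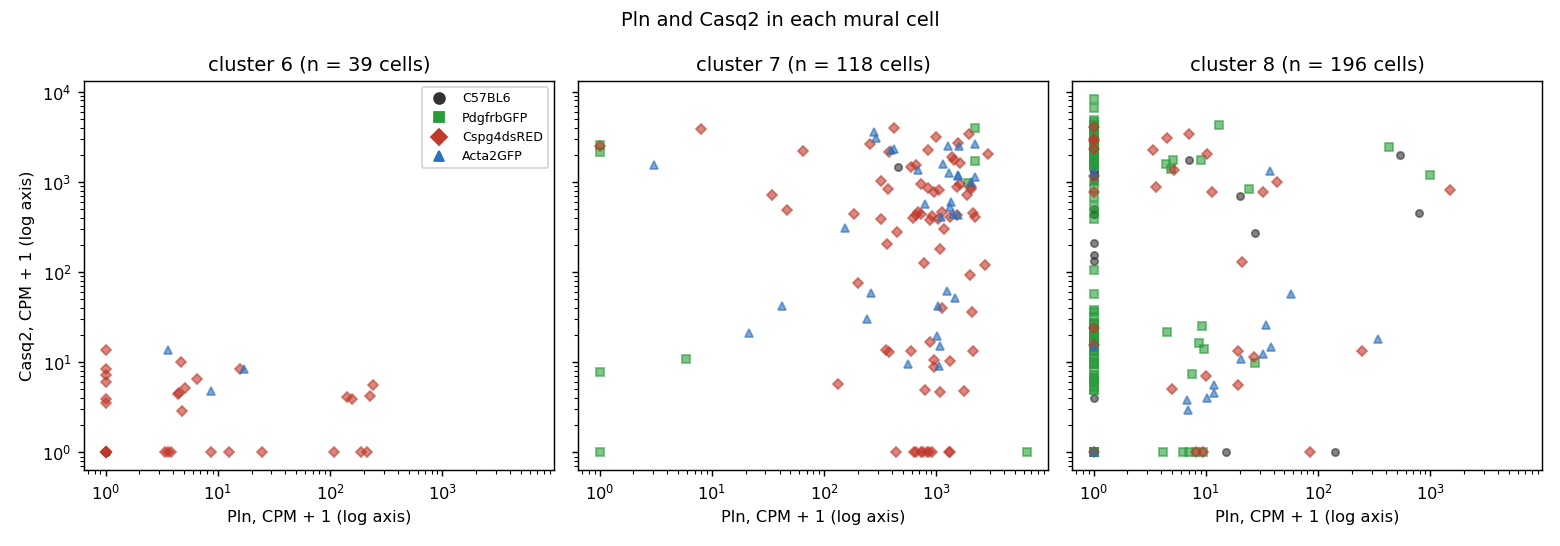
Pln against Casq2 in each mural cell, 1 panel per mural cluster. Both axes are CPM + 1 on log axes and points are cells marked by strain. In cluster 8 cells lie along the Casq2 axis, in cluster 7 most have both genes, and in cluster 6 Casq2 stays low.

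By level, the release channels gave a different picture. Itpr1 encodes the type 1 inositol trisphosphate receptor, which releases store calcium after receptor signalling. It was 42.9, 107.2, 207.1 and 168.2 CPM in mural cells and 103.4, 54.7, 98.6 and 75.6 CPM in fibroblasts of C57BL6, PdgfrbGFP, Cspg4dsRED and Acta2GFP. The ranges overlapped and C57BL6 had less in mural cells, with a log2 difference of 0.68 (SE 0.44, adjusted p = 0.533, edgeR). In cluster 7 Itpr1 stood at 332 CPM in Cspg4dsRED and 246.9 in Acta2GFP, but at 1.47 CPM in the 9 cells of PdgfrbGFP, so the strains of that cluster were not alike. Its cluster means ran from 40.6 ± 56.05 CPM in cluster 6 to 193.4 ± 171.6 in cluster 7 (SD, n = 3 strains each), and all clusters lay within these spreads.

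Ryr2 encodes the ryanodine receptor of cardiac muscle. It was scarce, at 5.33, 0.389, 15.1 and 5.80 CPM in mural cells and 2.87, 0.649, 2.65 and 0.701 CPM in fibroblasts of the 4 strains. Mural cells were higher in 3 of 4 strains, by a log2 fold change of 1.94 (SE 1.15) that was not called (adjusted p = 0.474, edgeR). At 10 counts or more Ryr2 was found in 15 of 353 mural cells, 10 of them in cluster 7. A single cell can hold much of such a sum, as in cluster 8 of C57BL6, where 1 of 33 cells had 453 CPM and the sum was 5.83 CPM.

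Ryr3, a further ryanodine receptor, had 25 counts in 7 cells in the whole series. It did not pass the filter on low counts in any comparison and was not tested. No mural cell had 10 counts, and 0 of 353 cells allows a share of up to 0.850%. The exons of Ryr3 share 916 bases with Aven on the other strand, and since the strand setting of the counting was not stated, even these counts may belong to Aven.

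The voltage-gated channels were both higher in mural cells, with less certainty. Cacna1c encodes the pore subunit of the L-type channel, the main path of calcium entry in vascular smooth muscle. It was 40.5, 40.1, 86.8 and 23.3 CPM in mural cells and 10.2, 6.13, 9.19 and 10.5 CPM in fibroblasts of the 4 strains. The ranges did not overlap and the log2 fold change was 2.42 (SE 0.56, adjusted p = 0.0301, edgeR). With strain as a block the adjusted p was 0.0985, with no filter on low counts it was 0.0566, and without each strain in turn it ran from 0.0638 to 0.142, so that any 1 strain left out ended the call, while the log2 fold change stayed between 2.04 and 2.72. Over all genes, the share called in either direction also fell from 5.93% to between 2.66% and 3.91% with 1 strain left out.

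The mural clusters held Cacna1c unevenly. Cluster 7 had 0.491 CPM in PdgfrbGFP, 109.1 in Cspg4dsRED and 20.9 in Acta2GFP, and cluster 8 had 44.4, 96.3 and 33.6 CPM in these strains and 47.3 CPM in C57BL6. Cluster 7 was lower in 2 of 3 strains, and the log2 difference of -0.40 (SE 1.49) was not called (adjusted p = 0.996, edgeR). The median cell of clusters 7 and 8 had no count of Cacna1c in any strain with 3 cells or more, and 51 of 353 mural cells had 10 counts or more.

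Cacna1h encodes a T-type channel subunit, which opens at more negative voltages. It was 4.29, 13.8, 42.1 and 63.4 CPM in mural cells. In fibroblasts it was 0 in C57BL6, where 3 counts would have been 0.0180 CPM, and 0.0276, 0.190 and 0.454 CPM in the other strains. The fitted log2 fold change was 7.61 (SE 1.71, adjusted p = 0.0266, edgeR), a size that depends on fibroblast values near 0. Cacna1h passed the filter on low counts through mural cells, where it was high, so these values are a description. The call was lost without PdgfrbGFP (adjusted p = 0.0952), without Cspg4dsRED (0.107) and without Acta2GFP (0.0808), with log2 fold changes of 7.47, 7.53 and 8.71.

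In cluster 7 Cacna1h stood at 41.2, 80.4 and 98.4 CPM in PdgfrbGFP, Cspg4dsRED and Acta2GFP, against 10.8, 7.20 and 0.747 CPM in cluster 8. The ranges of these clusters did not overlap. The PdgfrbGFP sum of cluster 7 came from a single cell with 405 CPM, and a single PdgfrbGFP cell of cluster 8 had 1614 CPM. In cluster 6 Cacna1h was 63.2 CPM in the 3 cells of Acta2GFP, 0.185 CPM in Cspg4dsRED and 0 in C57BL6. That Acta2GFP sum came from a single cell with 149.1 CPM. The log2 difference between clusters 7 and 8 was 3.60 (SE 1.52) and was not called by edgeR (adjusted p = 0.639), whereas DESeq2 called it (0.0268). It passed the filter on low counts through cluster 7, where it was high, so these values are a description. Cacna1h was present in 19.5% of the cells of cluster 7, 2.04% of cluster 8 and 2.56% of cluster 6, and in 0 of 926 fibroblasts, which allows up to 0.324%.

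The subunits of the large-conductance, calcium-activated potassium channel come last. Kcnmb1 encodes the β1 subunit, which raises the calcium sensitivity of the channel in smooth muscle. It was 232.2, 203.8, 379.8 and 241.1 CPM in mural cells and 0.163, 0.538, 0.569 and 2.93 CPM in fibroblasts. The log2 fold change was 8.00 (SE 0.91, adjusted p = 0.000840, edgeR, n = 4 strains) with no overlap, and the call held in 11 of 11 other settings. Kcnmb1 passed the filter on low counts through mural cells, where it was high, so these values are a description.

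Kcnmb1 was the 1 member of Pln, Casq2 and Kcnmb1 with high levels in all 3 mural clusters. Cluster 6 had 386 CPM in C57BL6, 449 in Cspg4dsRED and 658 in Acta2GFP. Clusters 7 and 8 together had 211.6, 349.5 and 199.7 CPM in these strains. Cluster 6 was thus higher in 3 of 3 strains without overlap, but the log2 difference of -1.11 (SE 0.62, clusters 7 and 8 minus cluster 6) was not called (adjusted p = 0.994, edgeR). Non-overlap with cluster 6 higher was found for 3.28% of all 12117 genes tested. The C57BL6 sum of cluster 6 came from 1 of its 3 cells, with 1317 CPM.

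In cluster 7 Kcnmb1 had 309 CPM in PdgfrbGFP, 378 in Cspg4dsRED and 266.1 in Acta2GFP, and in cluster 8 it had 192.2, 274.2 and 80.95 CPM. Cluster 7 was higher in 3 of 3 strains, the ranges overlapped, and the log2 difference was 0.90 (SE 0.64, adjusted p = 0.953, edgeR). The order of the cluster means was cluster 6 with 498 ± 142.5 CPM (SD, n = 3 strains), cluster 7 with 318 ± 56.2 (n = 3) and cluster 8 with 186.5 ± 79.6 (n = 4). Present at 10 counts or more, the gene was found in 82.1%, 60.2% and 21.4% of cells. In cluster 6, 26 of 39 cells held both Kcnmb1 and Atp2a2.

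Kcnma1 encodes the pore-forming α subunit on which Kcnmb1 acts. It was 0.347 and 0.0486 CPM in mural cells of C57BL6 and PdgfrbGFP, and 21.3 and 57.9 CPM in those of Cspg4dsRED and Acta2GFP. In fibroblasts it was 0.675, 10.3, 8.43 and 12.8 CPM in the same order. Mural cells were higher in 2 of 4 strains and the log2 difference was 1.28 (SE 1.57, adjusted p = 0.787, edgeR). In cluster 7 it was 0 in PdgfrbGFP, 20.0 CPM in Cspg4dsRED and 97.3 CPM in Acta2GFP, and in cluster 8 it did not exceed 1.19 CPM in any strain. The log2 difference of 6.47 (SE 2.69) was not called by edgeR (adjusted p = 0.624) and was called by DESeq2 (0.0152). It passed the filter on low counts with 2 sums of cluster 7 and 1 of cluster 8, so these values are a description. No cell of cluster 8 had 10 counts of Kcnma1, which allows up to 1.53%, whereas 21.4% of these cells had 10 counts of Kcnmb1. In cluster 6 Kcnma1 stood at 36.5 CPM for Cspg4dsRED, 9.18 CPM for Acta2GFP and 0 for C57BL6. There 9 of 39 cells had 10 counts or more, against 8.47% of the cells of cluster 7. By level Acta2GFP had less Kcnma1 in cluster 6 than in cluster 7 and Cspg4dsRED had more.

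Among fibroblasts, Kcnma1 was a gene of cluster 1, which the study took as likely valve interstitial cells. Its level in cluster 1 was 104.9 CPM for Cspg4dsRED, 91.5 for PdgfrbGFP, 45.9 for Acta2GFP and 18.6 for C57BL6. In clusters 2 to 5 together it was 0.411 CPM for Cspg4dsRED, 0.0777 for PdgfrbGFP, 3.49 for Acta2GFP and 0.0125 for C57BL6. All 4 strains were higher in cluster 1, without overlap, and the log2 fold change was 6.07 (SE 1.6). The adjusted p was 0.105 in edgeR (unadjusted p = 0.00282), 5.83e-05 in DESeq2 and 0.0282 in limma. Kcnma1 passed the filter on low counts through cluster 1, the side where it was high, so these values are a description.

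The cluster 1 sums came from few cells. Kcnma1 had 10 counts or more in 15.8% of C57BL6 cells (3.38 to 39.6), 9.09% of PdgfrbGFP (1.12 to 29.2), 33.3% of the 3 Cspg4dsRED cells (0.840 to 90.6) and 23.1% of Acta2GFP (8.97 to 43.6), 12 of 70 cells in all. Its partner Kcnmb1 stayed at 1.89 CPM or less in cluster 1. With cluster 1 left out of the fibroblasts, the log2 difference of Kcnma1 between mural cells and fibroblasts became 4.31 (SE 2.11, adjusted p = 0.352, edgeR).

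Counted over members, 6 of 10 were called higher in mural cells than in fibroblasts (Pln, Atp2a2, Casq2, Cacna1c, Cacna1h, Kcnmb1), against 2.45% of the 15117 genes tested. The members had been chosen with earlier results of these data known. The counts of members set beside shares of all genes in this paragraph are therefore a description. Of the 10, 9 passed the filter on low counts, and Cacna1h and Kcnmb1 passed it through the mural side, so their count is a description. In the comparison with cluster 6 the same holds for Casq2, Pln, Itpr1, Ryr2, Cacna1c and Cacna1h, which passed through clusters 7 and 8, the side where they were higher. Between clusters 7 and 8 it holds for Cacna1h, through cluster 7, and for Cacna1c, through cluster 8. In the comparison of cluster 1 it holds for Kcnma1 and Casq2, through cluster 1. Without cluster 6 the same 6 were called. The 6 also did not overlap between the sides, with mural cells higher, against 5.63% of all genes. Between clusters 7 and 8, 1 of the 9 members tested was called higher in cluster 7 (Pln), against 0.11% of 11867 genes, and 3 did not overlap in that direction (Pln, Atp2a2, Cacna1h), against 5.91%. Between clusters 7 and 8 together and cluster 6, 1 of 9 was called (Casq2), against 0.033% of 12117 genes, and it alone did not overlap in that direction, against 14.4%. With strain as a block 2 of 9 were called there (Pln, Casq2), against 0.883% of all genes. Between cluster 1 and clusters 2 to 5, edgeR called 0 of the 7 members tested, against 1.33% of 13201 genes in either direction. There, 1 member (Kcnma1) had an unadjusted p under 0.05 (8.87% of all genes), DESeq2 and limma each called 1 (Kcnma1; 5.22% and 2.36% of all genes), and it was the 1 member that did not overlap with cluster 1 higher, against 2.61% of all genes.

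The remaining values of the members in these comparisons were as follows, and none was called. Between clusters 7 and 8 the log2 difference was 1.33 for Itpr1 (SE 1.22) and 2.22 for Ryr2 (SE 2.03), each with an adjusted p of 0.978 in edgeR. Clusters 7 and 8 minus cluster 6, it was 1.88 for Itpr1, 1.59 for Ryr2, 1.89 for Cacna1c, 0.72 for Cacna1h and 0.63 for Kcnma1, with SEs of 1.52 to 2.09 and an adjusted p of 0.994 in edgeR. Atp2a2 was nearly level there, at -0.03 (SE 0.67, adjusted p = 0.999, edgeR). Cluster 1 minus clusters 2 to 5, it was 0.96 for Atp2a2 (SE 0.53, adjusted p = 0.710, edgeR), 1.18 for Ryr2, 0.70 for Casq2, 0.44 for Cacna1c, 0.30 for Pln and -0.06 for Itpr1, the last 5 with an adjusted p of 0.968 or more. Cacna1h, Kcnmb1 and Ryr3 did not pass the filter there.

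Without PdgfrbGFP, the log2 differences between clusters 7 and 8 were 1.42 for Atp2a2, 0.36 for Casq2, 4.51 for Cacna1h, 6.48 for Kcnma1 and 0.86 for Kcnmb1. Without Acta2GFP, whose cluster 8 held both marker lists, they were 1.07, 0.12, 2.89 and 0.74 for Atp2a2, Casq2, Cacna1h and Kcnmb1, none of them called, and Kcnma1 did not pass the filter. Pln was 4.65 without Acta2GFP and was called. Without C57BL6, whose cluster 6 held many fibroblast markers, the difference of clusters 7 and 8 from cluster 6 was 7.23 for Casq2 (adjusted p = 0.0467, edgeR), 4.72 for Pln (0.104) and -1.19 for Kcnmb1 (0.567).

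**Figure D4:**
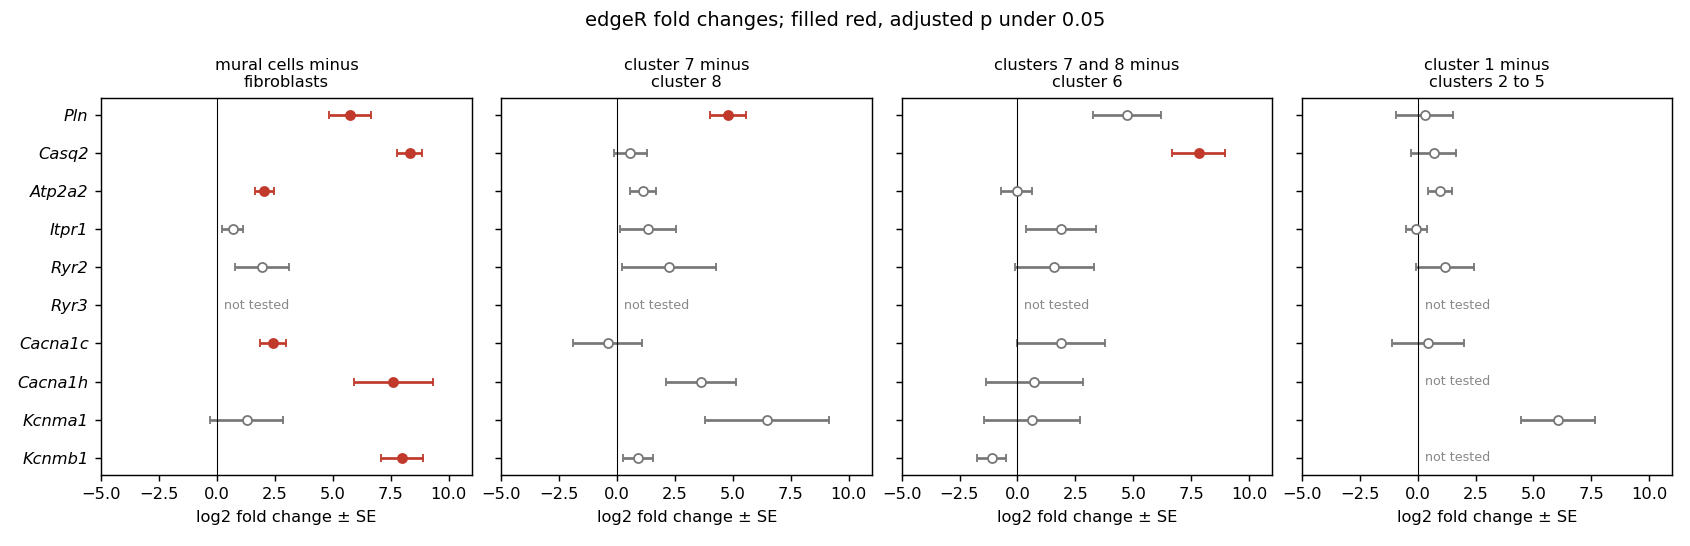
Fold changes of the members in the 4 comparisons. The horizontal axis is the log2 fold change from edgeR with its SE as the bar, each line is a gene, and filled red points have an adjusted p under 0.05. In mural cells against fibroblasts 6 members are called, in cluster 7 against cluster 8 Pln, in clusters 7 and 8 against cluster 6 Casq2, and in cluster 1 against clusters 2 to 5 none.

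Levels of different genes were compared per length, as RPKM (CPM per kilobase of exon). In cluster 7, Pln led with 414 ± 42.5 RPKM (SD, n = 3 strains), and Casq2 followed with 371 ± 125.4, a difference within the spread. Atp2a2 had 84.4 ± 37.2 and Kcnmb1 75.8 ± 13.4 RPKM, again within the spread, and Itpr1 had 10.6 ± 9.37 RPKM. In cluster 8 Casq2 led with 302 ± 184.7 RPKM (n = 4), before Kcnmb1 with 44.5 ± 18.99, Atp2a2 with 34.7 ± 9.79 and Pln with 14.9 ± 14.1. In cluster 6 Kcnmb1 led with 118.7 ± 34 RPKM (n = 3), before Atp2a2 with 60.7 ± 12.04 and Pln with 6.36 ± 8.16, and Casq2 had 1.15 ± 1.30. The order was not the same in every strain, since Casq2 was above Pln in cluster 7 of PdgfrbGFP and Atp2a2 above Casq2 in cluster 8 of Acta2GFP. Cacna1h had 7.51 ± 3.00 RPKM in cluster 7, and Cacna1c, Kcnma1 and Ryr2 had 2.61 RPKM or less in each of the 3 clusters.

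Traces of the mural genes were found in wells of fibroblasts, and they differed between plates. A C57BL6 plate with a single cell is left aside. Casq2 had at least 1 count in 0.398% of the fibroblast wells of a C57BL6 plate on which no mural cell was found, with a level of 0.0155 CPM. On the C57BL6 plate with mural cells, which were in 11.2% of its wells, it had a count in 20.9% of fibroblast wells (1.63 CPM), and on the 3 reporter plates in 44.1% (PdgfrbGFP), 53.8% (Cspg4dsRED) and 53.3% (Acta2GFP), with levels of 2.32, 2.84 and 3.98 CPM. Few of these wells were high, since 5 of 926 fibroblasts had 10 counts or more of Casq2 and 1 of 926 had 10 of Kcnmb1.

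Within a plate, Casq2 also moved with its counts in the mural wells of the same row and column. In PdgfrbGFP fibroblast wells above the plate's median of that neighbour count it had 3.72 CPM, and 0.828 CPM in the others. The corresponding levels were 4.19 and 1.09 CPM in Cspg4dsRED and 6.15 and 1.14 CPM in Acta2GFP, but 1.14 and 2.10 CPM on the C57BL6 plate. Kcnmb1 had 0.936 against 0.114 CPM in PdgfrbGFP and 1.87 against 4.51 CPM in Acta2GFP, so the direction was not shared. The part of counts that pass between wells in the low fibroblast levels was not tested.

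Pln behaved otherwise. It had 4.50 CPM in the fibroblasts of the plate without mural cells and 3.78, 2.89, 9.002 and 10.5 CPM on the plates with them. The plate without mural cells thus lay above 2 of the plates with them and below the other 2. The latter, Cspg4dsRED and Acta2GFP, had the most Pln in mural cells (569 and 642 CPM). In fibroblast wells above the median neighbour count Pln had 12.9 CPM in Cspg4dsRED and 15.1 CPM in Acta2GFP, against 2.53 and 5.32 CPM in the others. It went the other way in PdgfrbGFP (1.76 against 4.07 CPM) and on the C57BL6 plate (0.347 against 5.81 CPM). Of 926 fibroblasts, 19 had 10 counts or more of Pln, 9 of them on the Acta2GFP plate, and 3 of these 9 also had 10 counts of Casq2.

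**Figure D5:**
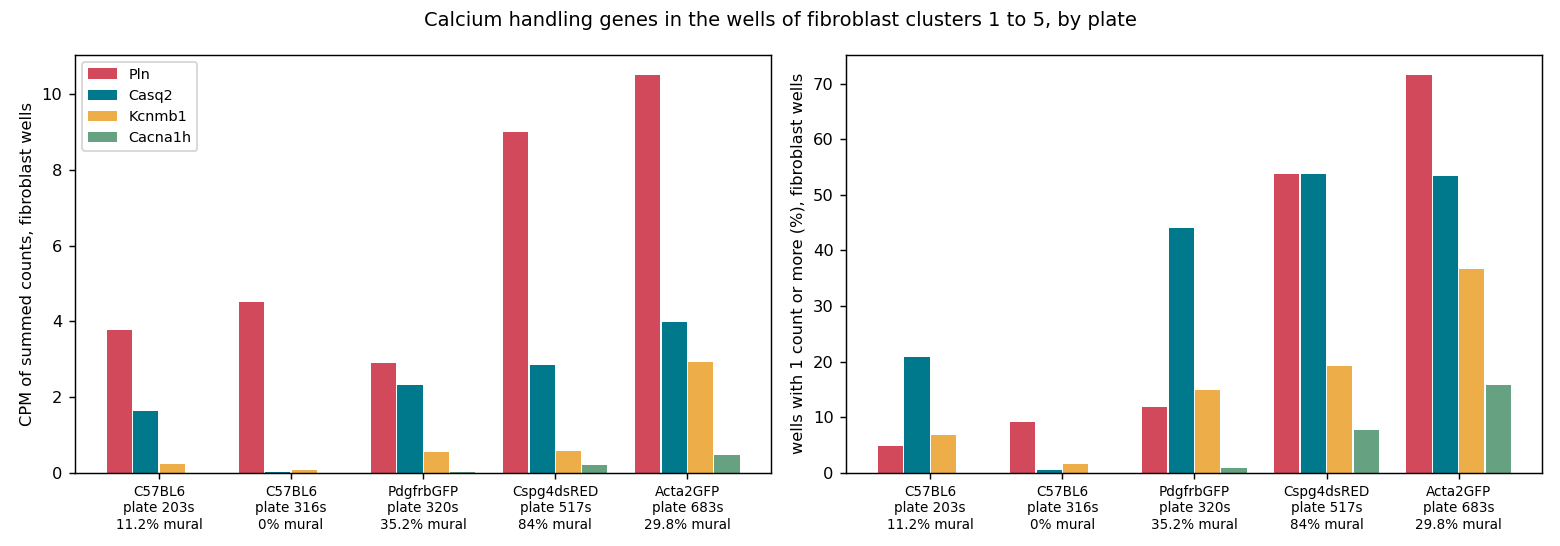
Member genes in the wells of fibroblast clusters 1 to 5, by plate. The plot sets the level and the share of wells with a count of each gene beside the plate and its share of mural wells. Casq2 is 0.0155 CPM on the plate without mural cells and from 1.63 to 3.98 CPM on the others, and Pln is between 2.89 and 10.5 CPM on every plate.

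Since Pln, Casq2, Atp2a2 and Ryr2 are also genes of cardiac muscle, the markers of that cell type were set beside them. Summed over 10 markers of which none was a member, their level was 3.92 to 689 CPM in cluster 6, 252.7 to 759 in cluster 7, 233.8 to 418 in cluster 8 and 13.9 to 487 in the fibroblast clusters. By cluster the ranges overlapped. Summed over all mural cells or all fibroblasts of a strain, the markers had 285.7 to 379 CPM in mural cells and 31.7 to 182.4 CPM in fibroblasts, with no overlap, and their part in the differences between these sides was not tested. Myh6, which defines atrial and ventricular muscle of the adult mouse, ran from 0 to 37.6 CPM in mural sums. In the 9 cells of cluster 7 of PdgfrbGFP, where Pln was 1276 CPM, the 10 markers summed to 759 CPM, the highest of the cluster sums. Of these 10 markers, 5 were at 0 there (Myh6, Actn2, Myl3, Nppa, Ckm) and Tnnt2 was 422 CPM. On the plate without mural cells the 10 markers summed to 100.9 CPM and Pln to 4.50 CPM in fibroblasts.

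Reads of some members could not be told from those of a gene on the other strand. Exons overlapped between Pln and Cep85l, between Atp2a2 and Gm43361 (83 bases), between Itpr1 and both Gm44101 and Gm44040, and between Cacna1h and Tpsg1. The other members but Ryr3 shared no exon bases with another gene.

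The calcium genes around the members were taken as a list of 72, all found in the table. Between mural cells and fibroblasts, 49 passed the filter, 5 rose in mural cells (2.45% of all genes did), 1 was higher in fibroblasts (3.47% of all genes) and 43 were not called, with a median log2 fold change of 0.55 against 0.02 over all genes tested. The gene higher in fibroblasts was Orai2, a store-operated channel, with 0.348 ± 0.229 CPM in mural cells against 18.3 ± 13.01 CPM in fibroblasts (SD, n = 4 strains; log2 -5.65, SE 1.02, adjusted p = 0.0101, edgeR).

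Of the genes that rose, 4 are described. Atp2a3, the SERCA3 pump of the store, had 165.5 ± 62.9 against 20.5 ± 11.99 CPM (log2 3.05, SE 0.45, adjusted p = 0.00355, edgeR). Hrc, a calcium-binding protein of the reticulum lumen, had 28.1 ± 27.7 against 0.393 ± 0.338 CPM (log2 6.12, SE 1.22, adjusted p = 0.0150, edgeR). Orai2 passed the filter on low counts through fibroblasts and Hrc through mural cells, the sides where they were high, so their calls are a description. Mrvi1, a partner of the inositol trisphosphate receptor in smooth muscle, had 318 ± 203.4 against 9.74 ± 5.77 CPM (log2 4.99, SE 0.78, adjusted p = 0.00499, edgeR). Mylk, the kinase through which calcium and calmodulin start contraction, had 1256 ± 1078 against 15.4 ± 12.5 CPM (log2 6.33, SE 0.97, adjusted p = 0.00453, edgeR). The call of Hrc was lost without PdgfrbGFP, Cspg4dsRED or Acta2GFP and with strain as a block, with an adjusted p of 0.108 at most. That of Orai2 was lost without C57BL6, PdgfrbGFP or Acta2GFP, with 0.0825 at most. None of 9 voltage-gated channel subunits, 3 extrusion genes and 6 genes of mitochondrial uptake tested was called in this comparison.

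Within mural cells and within fibroblasts, edgeR called none of the listed genes. Of 39 tested between clusters 7 and 8, 6 had an unadjusted p under 0.05, DESeq2 called 2 (Hrc, Slc8a1) and limma 0, against 6.88%, 3.2% and 0.379% of all genes. Of 40 tested between cluster 6 and clusters 7 and 8, 4 had an unadjusted p under 0.05, DESeq2 called 2, among them Cacna1g, and limma 0, against 5.74%, 2.81% and 0.0413% of all genes. Of 41 tested between cluster 1 and clusters 2 to 5, 5 had an unadjusted p under 0.05, DESeq2 called 2 (Atp2b4, Stim2) and limma 0, against 8.87%, 5.22% and 2.36% of all genes. None of these counts is read as a result about the list. Mylk averaged 2469 ± 1079 CPM in cluster 7 and 498 ± 282.8 in cluster 8 (SD, n = 3 strains; log2 2.34, SE 0.55, adjusted p = 0.149, edgeR).

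The genes with the most similar profile were sought over the 27 sums of a strain and cluster, among 10326 genes with a mean of 10 CPM or more. For Pln these included Hrc (r = 0.93) and Gucy2g (0.87), and for Casq2 they were Inpp4b (0.98), Tbx3os1 (0.96) and Esam (0.96). For Kcnmb1 they were Tinagl1 (0.95), Mcam (0.95) and Trpv2 (0.92), and for Cacna1h Rgs7bp (0.94), Gm13861 (0.92) and Olfr558 (0.90). Atp2a2 was less alike to any gene (Unc45a and Ppp1r12a 0.84, Mef2a 0.83), as were Cacna1c (Mb 0.76) and Kcnma1 (Clu 0.81). The sums share plates and clusters, so the values describe likeness over these cells only.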

How the data were processed

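Single cells were sorted into 384-well plates, and each deposited sample was 1 cell. As the study's methods state, 50 base single reads were trimmed by the authors with Trim Galore and mapped to GRCm38 with TopHat2, what they call doublets was removed with samtools, and reads were counted per gene with featureCounts. The deposited values were raw read counts without normalization. The annotation release and strand setting are not given in the sources used here. Before deposit the authors dropped cells of low count or gene number, and those with very many genes, which they took for doublets. They also dropped cells that expressed neither Pdgfra nor Pdgfrb, those that looked endothelial or immune and, where needed, those with many spike-in or mitochondrial reads. The mural cells were thus selected on expression of these receptors. All deposited cells were used here, with no further doublet calling.

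ERCC spike-ins (1.82% of counts) were kept out of library sizes. For each comparison the counts of a strain's cells were added up on either side, where both sides had 3 cells or more. They were compared with the edgeR 4.0.16 quasi-likelihood test in R 4.3.3 (TMM, filterByExpr with a minimum count of 10, Benjamini-Hochberg over all genes tested, threshold 0.05). SEs were taken from the size of the log2 fold change over √F. Levels are CPM of sums, and RPKM used the union exon length of GENCODE M21. DESeq2 1.42.0, limma 3.58.1, a strain block and strains left out in turn were alternatives. Scripts were tested on simulated data. Per the labels, both sides of a pair come from the same strain. The main edgeR fits did not use this pairing, and the alternative with strain as a block did. The sides also share a plate in the reporter strains, whereas C57BL6 fibroblasts came from 2 plates with no mural cell beside the plate of its mural cells. The correlation of their deviations ran from 0.023 to 0.191 over the 14 pairs of sides.

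The members and lists were chosen with earlier results of these data known. All members were named in every comparison. Of the other calcium genes, those called with the same direction in every strain were named, at most 5 per direction. Some genes that these rules name are not reported here. As the profile most like a member, the 3 genes with the highest Pearson correlation of log2(CPM + 1) over sums of a strain and cluster were taken. Marker lists covered fibroblasts, cardiac muscle, Schwann, immune and endothelial cells, pericytes, smooth muscle and mural cells as a whole. Summed over their markers, the mural clusters had 2.94 to 276 CPM of endothelial, 0 to 184 CPM of immune and 0 to 5.70 CPM of Schwann markers.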

Additional observations from a re-analysis of the deposited data

Results flagged for a closer look

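Of 57 groups of 4 strains examined for a member and a cluster or side, 10 held a strain far from the other 3 by Dixon's criterion, where chance gives about 1 in 20. In 3 of them this was C57BL6. Ryr2 was 7.97 CPM in cluster 2 of C57BL6 and 0 to 0.303 CPM in the others, Cacna1c was 47.5 CPM in cluster 1 of C57BL6 and 0 to 2.47 CPM in the others, and Ryr3 was 0.127 CPM in fibroblasts of C57BL6 and 0 to 0.0206 CPM in the others.

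In the other 7 the strain was Acta2GFP, and the levels were mostly low. Kcnmb1 was 2.93 CPM in its fibroblasts, against 0.163 to 0.569 CPM, and 5.77 CPM in its cluster 2, against 0.176 to 0.984 CPM. Kcnma1 was 7.77 CPM in its cluster 4, against 0 to 0.839 CPM, and 0.243 CPM in its cluster 2, against 0 in the others. Cacna1h was 0.472 CPM in its cluster 1 and 0.546 CPM in its cluster 2, against 0 in the other strains. Ryr3 was 0.146 CPM in its mural cells, which is 3 counts, against 0 in the others. The Acta2GFP cells also had the most genes detected, a median of 6388 against 3358 to 4265 in the other strains. The part of this in the levels was not tested.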

How the results depend on the processing

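The clusters came from the same counts, strain is confounded with sort and, in the reporter strains, plate, and depth limits what can be said of members with few counts. Of 6 members called between mural cells and fibroblasts, 3 to 5 were called when 1 strain was left out, with 3 without PdgfrbGFP and without Acta2GFP. Between clusters 7 and 8, DESeq2 called 3, and 0 to 1 were called with 1 strain left out. Between cluster 6 and clusters 7 and 8, 2 were called without a filter and 2 with strain as a replicate block, and 0 to 1 with 1 strain left out. Between cluster 1 and clusters 2 to 5, DESeq2 and limma called 1 each. The block, with pairing by strain, also ended the call of Cacna1c between mural cells and fibroblasts (adjusted p = 0.0985, edgeR) and changed no other member call than this and that of Pln. Values that turned sign were all of members not called. Mural cells minus fibroblasts, Kcnma1 was -0.24 with the block and -0.18 in limma. Cluster 7 minus 8, Itpr1 was -0.57 in limma, and Cacna1c ran from -1.89 to 0.0068 with 1 strain left out. Clusters 7 and 8 minus 6, Atp2a2 was 0.11 without a filter and -0.42 to 0.50 with 1 strain left out, where Cacna1h ran from -0.18 to 7.77 and Kcnma1 from -1.34 to 2.48. Cluster 1 minus clusters 2 to 5, Pln was -0.68 with the block, -0.29 in limma and -1.23 to 0.93 with 1 strain left out. Itpr1 was 0.012 with DESeq2 size factors, 0.011 in DESeq2 and -0.25 to 0.00044 with 1 strain left out, and Cacna1c was -2.75 with the block, -1.02 in limma and -3.40 to 0.96. Over all genes, 5.93% of genes were called between mural cells and fibroblasts, 12.7% in DESeq2, 9.22% in limma, 2.58% without a filter, where more genes were tested, and 2.66 to 3.91% with 1 strain left out. Between clusters 7 and 8 it was 0.194%, with DESeq2 size factors and in limma 0.379%, without a filter 0.855%, in DESeq2 3.20%, with the block 0.691% and with 1 strain left out 0 to 0.987% (0 without PdgfrbGFP). With these size factors 73.3% of the calls were higher in cluster 7, against 56.5%, and the median log2 over all genes, cluster 8 minus 7, was 0.040 against 0.18. For cluster 6 the 0.033% became 0.418% without a filter, 2.81% in DESeq2, 0.883% with the block and 0 to 0.495% with 1 strain left out (0 without Cspg4dsRED), and the median, cluster 6 minus 7 and 8, was -0.17 with DESeq2 size factors against -0.32. For cluster 1 the 1.33% became 0.530% without a filter, 5.22% in DESeq2, 0.742% with the block, 2.36% in limma and 0.201 to 0.748% with 1 strain left out. Of 80 mean shares of cells with at least 1 count of a gene, 37 moved by more than 1 SD when 10 counts were asked for, the cut-off of the shares above. When cells were thinned, 23 did. Of 40 differences within strains, 4 did with a pseudocount of 5 CPM.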
